A study of Mus musculus with 10 samples.

Results

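Ligand-gated ion channels open when a transmitter binds them, and each is assembled from several subunits encoded by separate genes. Their subunit genes were followed here in dorsal root ganglia (DRGs), where sensory neurons have their cell bodies, of mouse embryos with and without Lkb1. Members were all genes whose symbol starts with Gabr, Gria, Grik, Grin1, Grin2, Grin3, Chrna, Chrnb, P2rx, Htr3, Glra or Glrb among the probe sets that name exactly 1 gene. The rule gave 58 of the 19938 genes measured this way: 16 GABA-A, 4 AMPA, 5 kainate, 6 NMDA, 13 nicotinic, 7 P2X, 2 5-HT3 and 5 glycine receptor subunits. Where a gene had several such probe sets, the one with the highest mean over the 10 arrays stood for it. That mean took the WT and Lkb1 KO arrays together. The members were chosen with earlier results of these data known.

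The study hybridised RNA of E13.5 DRGs, taken directly from embryos, to Mouse Gene 1.0 ST arrays of Affymetrix (1 colour, 1 array per sample), with 5 Lkb1 KO and 5 WT samples. Lkb1 is a kinase, encoded by Stk11, that switches on AMPK and related kinases, and its floxed alleles were deleted by Cre driven from Wnt1. Wnt1-Cre acts in the neural crest lineage. That lineage gives rise to sensory neurons, Schwann cells and satellite glia of the ganglion and to sympathetic neurons, but not to endothelium or macrophages. Per the paper's methods Wnt1-Cre is also active in midbrain and in the dorsal part of the neural tube. WT littermates of mixed genetic background were the controls, each sample pooled the DRGs of 2 embryos, and the sources used here do not state whether WT embryos carried Cre or floxed alleles. Each value below is a log2 RMA expression level, on which a step of 1 is a doubling of signal. Differences between genotypes were tested with limma over all 19938 genes, and calls were made where the adjusted p lay under 0.05. These p-values measure the spread between the 5 pools of a genotype.

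Stk11 was lower in all 5 Lkb1 KO samples, at 7.68 to 7.94, than in the WT samples, at 8.51 to 9.08 (limma, adjusted p = 0.000115). A few pools stood apart. In Lkb1 KO replicates 2 and 5 the 3 Y-linked genes measured, Eif2s3y, Uty and Kdm5d, were at 4.66 to 5.47, against 7.89 to 10.70 in the other 8 samples. Lkb1 KO replicate 2 also carried sympathetic markers, with Dbh at 7.83 against 4.79 to 4.91 elsewhere, and Lkb1 KO replicate 3 carried skeletal muscle markers, with Actc1 at 10.41 against 6.78 to 7.76. Since no Y-linked transcript was seen in those pools, 5.47 served as a rough mark for signal without transcript, although probe sets differ in their own background. Array medians differed by at most 0.069, and the SD of log2 differences between arrays of 1 genotype over all genes was 0.177 to 0.276.

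GABA-A, glycine, nicotinic and 5-HT3 receptors are rings of Cys-loop subunits. The first 2 pass chloride and the others pass cations. AMPA, kainate and NMDA receptors are glutamate-gated cation channels built from a different fold, and P2X receptors are cation channels opened by ATP. Sensory neurons carry members of most of these classes: P2X and 5-HT3 channels depolarise their peripheral endings, kainate and NMDA receptors sit on their central terminals, and GABA-A receptors there set presynaptic inhibition.

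Of the 4 subunits that passed the test below, Grik3, P2rx7, Gabra5 and Htr3a, the promoters of the first 3 are shown. No promoter window was found for Htr3a. RefSeq windows on GRCm38.p6, from 250 bases before to 50 after the start, were found for 43 of the 58 members, with 49 windows in all. CpG pairs are in capitals. Grik3 (chr4:125490446-125490745, plus strand) had 50 CpG pairs, the most in any member window. P2rx7 had 2 windows on the plus strand, with 8 CpG pairs in the first (chr5:122643677-122643976) and 4 in the second (chr5:122650133-122650432). Gabra5 (chr7:57510010-57510309, minus strand) had 13.
Grik3: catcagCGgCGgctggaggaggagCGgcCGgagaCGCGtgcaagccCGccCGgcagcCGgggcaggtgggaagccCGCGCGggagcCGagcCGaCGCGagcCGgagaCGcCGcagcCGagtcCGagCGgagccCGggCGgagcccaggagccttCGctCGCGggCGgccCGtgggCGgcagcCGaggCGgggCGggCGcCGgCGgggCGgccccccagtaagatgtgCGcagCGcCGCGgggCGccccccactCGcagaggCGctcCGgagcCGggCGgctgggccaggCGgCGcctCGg
P2rx7, first window: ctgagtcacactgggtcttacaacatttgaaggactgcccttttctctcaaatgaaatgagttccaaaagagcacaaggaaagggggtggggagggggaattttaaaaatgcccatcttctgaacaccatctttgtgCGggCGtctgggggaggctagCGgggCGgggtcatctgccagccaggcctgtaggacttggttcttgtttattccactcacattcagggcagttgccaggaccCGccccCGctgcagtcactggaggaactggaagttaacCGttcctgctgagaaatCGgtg
P2rx7, second window: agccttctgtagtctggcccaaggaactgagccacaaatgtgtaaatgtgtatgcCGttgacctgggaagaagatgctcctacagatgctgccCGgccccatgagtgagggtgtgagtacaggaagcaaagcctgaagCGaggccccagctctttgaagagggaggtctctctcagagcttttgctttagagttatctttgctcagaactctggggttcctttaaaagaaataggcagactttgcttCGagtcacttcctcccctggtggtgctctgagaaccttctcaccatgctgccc
Gabra5: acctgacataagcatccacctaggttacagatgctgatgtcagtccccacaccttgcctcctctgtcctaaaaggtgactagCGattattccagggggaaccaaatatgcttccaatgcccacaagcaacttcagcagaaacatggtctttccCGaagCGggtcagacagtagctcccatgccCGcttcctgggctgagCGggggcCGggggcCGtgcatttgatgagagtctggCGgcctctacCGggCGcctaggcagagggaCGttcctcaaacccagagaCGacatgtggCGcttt
The median was 10 CpG pairs over the member windows and 7 over all 32851 windows of the table, whose highest count was 67. The letters TGACGTCA, a cAMP response element, and their short form TGACG, which every TGACGTCA also holds, were searched on both strands, since CREB coactivators are regulated by kinases that Lkb1 activates. TGACGTCA was in 0 member windows and in 1.79% of all windows, and TGACG in 16.3% of member windows and in 20.8% of all windows. None of the 4 windows printed here held either string.

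Means over the 10 arrays lay above 5.47 for 32 members and at or below it for 26. All 4 AMPA, all 5 kainate and both 5-HT3 subunits were above the mark, with 7 of 16 GABA-A, 2 of 6 NMDA, 6 of 13 nicotinic, 4 of 7 P2X and 2 of 5 glycine subunits. WT means ran from 4.46 to 11.88. Probe sets differ in efficiency, so the levels of different genes are not ranked against each other. P2rx3, the ATP receptor subunit of nociceptors, had a WT mean of 11.88 ± 0.06 (SD, n = 5). Gabra3 was at 10.12 ± 0.11 (SD, n = 5) in WT, and Chrna3, a subunit of the ganglionic nicotinic receptor, at 10.02 ± 0.16 (SD, n = 5).

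**Figure D1:**
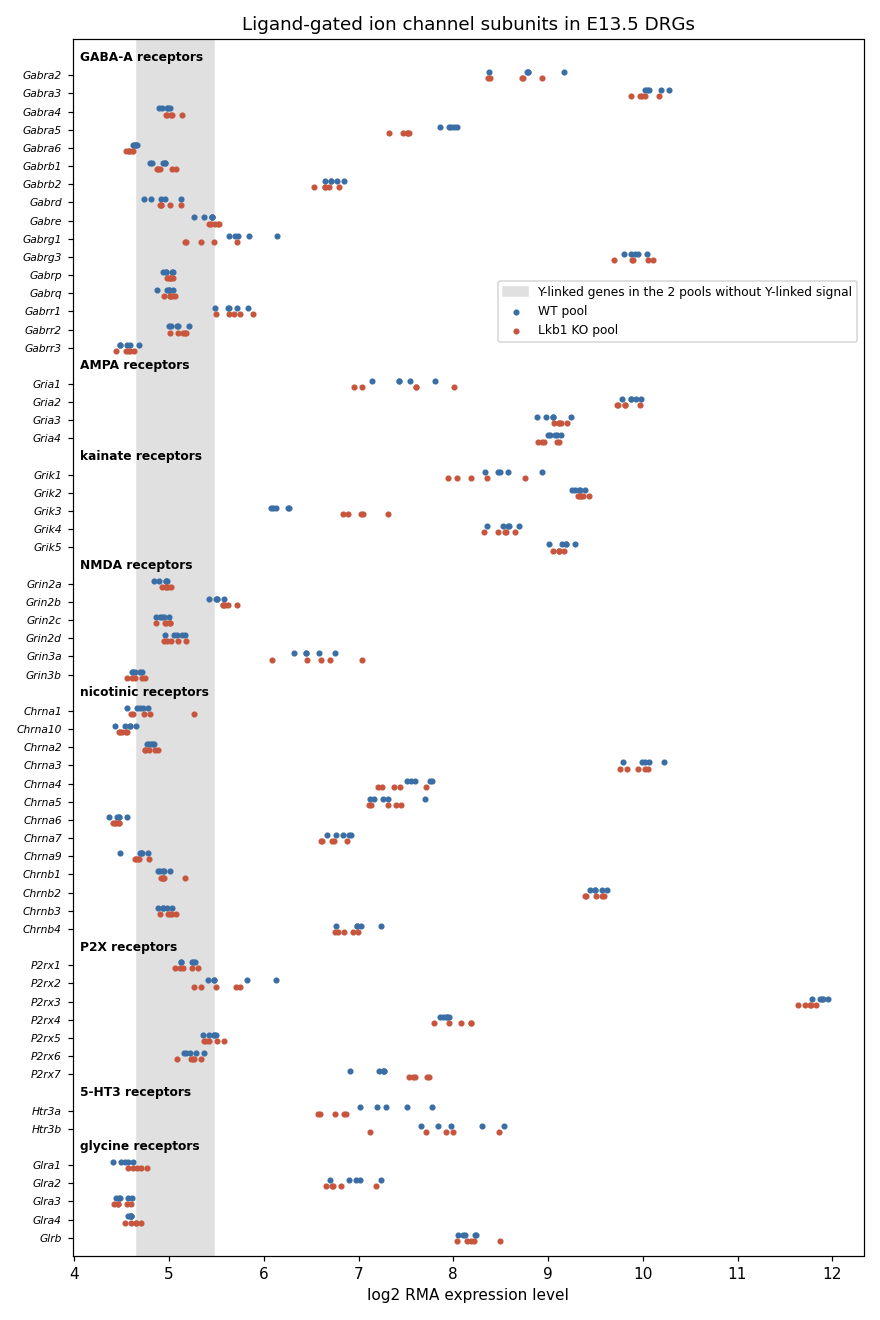
Log2 RMA expression level (x axis) of each of the 58 subunits (rows, by receptor class) in the 5 WT pools (blue) and the 5 Lkb1 KO pools (red); the grey band spans 4.66 to 5.47, the values of the 3 Y-linked genes in the 2 pools without Y-linked signal. For Grik3, P2rx7, Gabra5 and Htr3a the colours do not overlap, and 26 subunits have their mean in or below the band.

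Of the 58 members 4 passed the test, 2 higher in Lkb1 KO (Grik3 and P2rx7) and 2 lower (Gabra5 and Htr3a), which is 6.9% against 3.87% of all genes. Over all genes 2.49% were called higher and 1.38% lower. The same 4 were the members whose WT and Lkb1 KO values did not overlap, a property of 5.34% of all genes, and 9 members had an unadjusted p under 0.05, against 15.3% of all genes. All 4 were among the 32 members above the mark, of which 12.5% were called, against 5.76% of the 12751 genes above it. An analysis of variance for each gene called Grik3, P2rx7 and Gabra5, against 1.94% of all genes. The 54 others did not pass in limma, 26 of them at levels where probe sets without transcript also lay. The median log2 fold change was -0.007 over the members and -0.002 over all genes. Above the mark it was -0.071 for the 32 members, 22 of them with a negative value. For the 12751 genes above the mark it was -0.017, with a negative value in 7419 of them.

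Grik3, a kainate receptor subunit of low glutamate affinity, rose by the largest amount among the members. The WT samples were at 6.27, 6.10, 6.13, 6.08 and 6.25 and the Lkb1 KO samples at 7.05, 6.89, 7.31, 6.84 and 7.03. Every Lkb1 KO pool lay above every WT pool, and the gap between the groups was wider than the range within either. Means were 6.17 ± 0.09 in WT and 7.02 ± 0.18 in Lkb1 KO (SD, n = 5 each), a log2 fold change of 0.86 (SE 0.079, 95% interval 0.69 to 1.03), or 1.81-fold (limma, adjusted p = 6.81e-05). In whole ganglia fewer cells of a type and less RNA per cell cannot be told apart, here and in each result that follows.

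P2rx7, an ATP-gated channel known from macrophages and glia, rose too. It was at 6.91, 7.26, 7.27, 7.21 and 7.27 in WT and at 7.57, 7.72, 7.74, 7.60 and 7.53 in Lkb1 KO. WT replicate 1 lay below the other WT pools, and all Lkb1 KO pools lay above all WT pools. The log2 fold change was 0.45 (SE 0.071, 95% interval 0.29 to 0.60), or 1.36-fold (limma, adjusted p = 0.00339), and without WT replicate 1 it was 0.38 with the call kept. Of 12 macrophage markers measured 0 were called by limma, and 0 had an unadjusted p under 0.05. The mean of their log2 levels per sample was 6.34 to 6.48 in WT and 6.41 to 6.51 in Lkb1 KO. Csf1r, a defining marker, was at 6.52 ± 0.06 in WT and 6.48 ± 0.05 in Lkb1 KO (SD, n = 5 each). Of 9 Schwann cell and satellite glia markers 0 rose and 1 fell, Cdh19, a cadherin of Schwann cell precursors (log2 fold change -0.50). With the replicate number as a block 1 rose, Egr2 (0.28, limma, adjusted p = 0.0133), and 2 fell, Cdh19 and Mbp (-0.34, adjusted p = 0.00322). The mean of that list was 8.94 to 9.04 in WT and 8.92 to 8.96 in Lkb1 KO. Slc1a3, the glial glutamate transporter, is counted on another list given below and rose by 0.56 (limma, adjusted p = 0.00157). From that list Slc1a2, another glutamate transporter, at -0.10 and Glul at 0.14 were not called (limma, adjusted p = 0.541 and 0.151). The part of macrophages or of glia in the rise of P2rx7 was not tested.

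Gabra5, a GABA-A subunit known for tonic inhibition, fell. The WT samples were at 7.95, 7.98, 8.04, 8.01 and 7.86 and the Lkb1 KO samples at 7.52, 7.32, 7.47, 7.51 and 7.53. The groups were apart and tight, with SDs of 0.07 in WT and 0.09 in Lkb1 KO around means of 7.97 and 7.47 (n = 5 each). The log2 fold change was -0.50 (SE 0.049, 95% interval -0.61 to -0.39), or 1.41-fold lower (limma, adjusted p = 0.00011).

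Htr3a, the subunit without which no 5-HT3 receptor works, fell with a wider spread. It was at 7.29, 7.19, 7.77, 7.51 and 7.01 in WT and at 6.87, 6.75, 6.85, 6.57 and 6.59 in Lkb1 KO. The groups did not overlap, but the gap between WT replicate 5 and the highest Lkb1 KO pool was small beside the WT range. The difference was -0.63 (SE 0.12, 95% interval -0.89 to -0.37), on the log2 scale, or 1.54-fold lower (limma, adjusted p = 0.0112). The call was lost in the 8 samples with Y-linked signal (-0.59, adjusted p = 0.0756) and with the Y-linked mean as a covariate (-0.58, adjusted p = 0.0734). An exact two-sided permutation test gave p = 0.00794 for Htr3a, as for each of the other 3 called subunits. It is the smallest value that the 252 assignments of 5 and 5 samples allow. Groups of this size that do not overlap always give it, so it adds nothing to the lack of overlap.

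**Figure D2:**
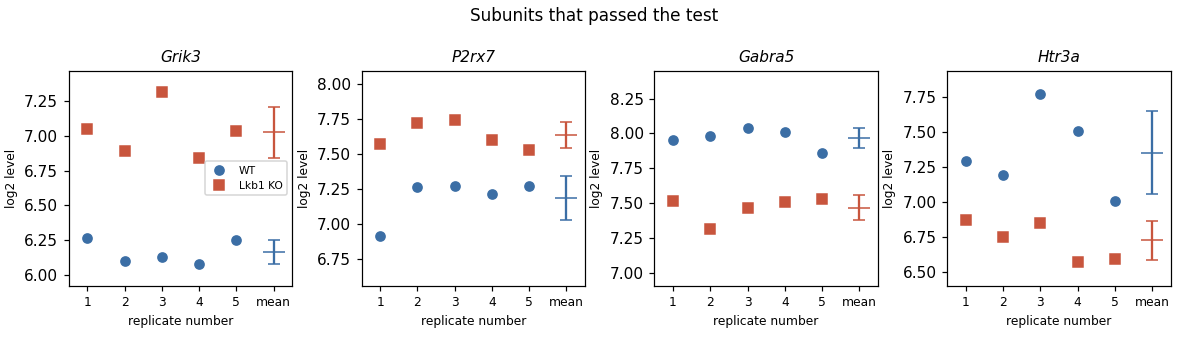
Log2 RMA expression level (y axis, the same span in each panel) of the 4 subunits that passed the test, by replicate number (x axis), in WT (circles) and Lkb1 KO (squares), with their mean and SD at the right. Grik3 and P2rx7 are higher and Gabra5 and Htr3a lower in every Lkb1 KO pool than in any WT pool.

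Of the sensory neuron markers, all 20 measured had negative log2 fold changes, with a median of -0.194 over the list. In limma 3 fell, Isl1, Prrxl1 and Elavl4, at -0.25, -0.19 and -0.18, against 1.38% of all genes called lower. With the replicate number as a block 9 of the 20 fell, with Pou4f3, Ntrk2, Runx3, Avil, Scn10a and Ret in addition, while that fit called 6.42% of all genes. The mean of the list was 9.88 to 10.11 in WT and 9.69 to 9.89 in Lkb1 KO. Markers of dividing cells rose in 12 of 15 cases, with a mean of 8.58 to 8.77 in WT and 8.93 to 9.17 in Lkb1 KO. Fibroblast and mesenchyme markers rose in 10 of 18 cases, with a mean of 8.14 to 8.21 in WT and 8.35 to 8.44 in Lkb1 KO. Over all genes limma called 2.49% higher. The part of these cell types in the change of any subunit was not tested.

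The other 15 GABA-A subunits gave no call. Gabrg1, a gamma subunit, came nearest. It was at 6.14, 5.84, 5.63, 5.69 and 5.73 in WT and at 5.72, 5.34, 5.47, 5.17 and 5.18 in Lkb1 KO. Only the top of the Lkb1 KO range reached into the WT range, and the Lkb1 KO pool was the lower one at each of the 5 replicate numbers. Besides Gabra5 and Htr3a, the latter was also true of Gabra2, Gabra6, Gabrb2, Gria2, Grik1, Chrna4, P2rx3 and Glra2. None of these was called with genotype only. All WT pools were above 5.47, whereas the Lkb1 KO pools other than replicate 1 were at or below this mark, where the size of a fall cannot be read closely. It differed by -0.43 on the log2 scale (SE 0.11, limma, adjusted p = 0.0554). It was called in 5 of the 21 alternative fits. With the replicate number as a block in the limma fit it was called (adjusted p = 0.00198), and without Lkb1 KO replicate 1 it was called at -0.52. It was not called with the Y-linked mean as covariate (-0.34, limma, adjusted p = 0.255) or by the analysis of variance (adjusted p = 0.188). Gabra2, an alpha subunit of sensory neurons, was at 8.78 ± 0.28 in WT and 8.63 ± 0.25 in Lkb1 KO (SD, n = 5 each), which overlapped almost wholly. Gabra3 had a log2 fold change of -0.11 (95% interval -0.25 to 0.02) and Gabrg3 one of 0.02 (95% interval -0.14 to 0.17). The members of this class other than Gabra5 and Gabrg1 lay between -0.15 and 0.08.

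The 4 AMPA subunits had log2 fold changes between -0.08 and 0.09, and 0 passed in limma, 0 of them with an unadjusted p under 0.05. Gria2, the subunit that limits calcium entry, was at 9.78, 9.87, 9.88, 9.93 and 9.98 in WT and at 9.74, 9.81, 9.73, 9.81 and 9.97 in Lkb1 KO. These ranges nearly coincided, and the 95% interval of the difference, -0.19 to 0.04, was narrow. Gria1 was far more scattered, with a 95% interval of -0.42 to 0.37, so that a difference of the size seen for Gabrg1 would lie just past its edge.

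Beside Grik3 the kainate class held no call. Grik1, the kainate subunit typical of small sensory neurons, was at 8.94, 8.58, 8.47, 8.49 and 8.33 in WT and at 8.76, 8.19, 8.35, 7.94 and 8.04 in Lkb1 KO. The groups overlapped, yet within each replicate number the Lkb1 KO pool was lower, with differences of -0.56 to -0.11. Their mean was -0.31 (SE 0.15, limma, adjusted p = 0.342), and with the Y-linked mean as covariate it was -0.20 (adjusted p = 0.643). Of the 21 alternative fits, only the limma fit with the replicate number as a block called it (adjusted p = 0.0166). With that block 4 members were lower, Gabra5, Htr3a, Gabrg1 and Grik1, in place of 2, against 565 genes in place of 275 over the whole table (2.83% against 1.38%). Grik2 hardly varied, at 9.32 ± 0.05 in WT and 9.36 ± 0.04 in Lkb1 KO (SD, n = 5 each), with a 95% interval of -0.04 to 0.13. Grik4 and Grik5, the high-affinity subunits that need a partner, had log2 fold changes of -0.03 and -0.05.

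**Figure D3:**
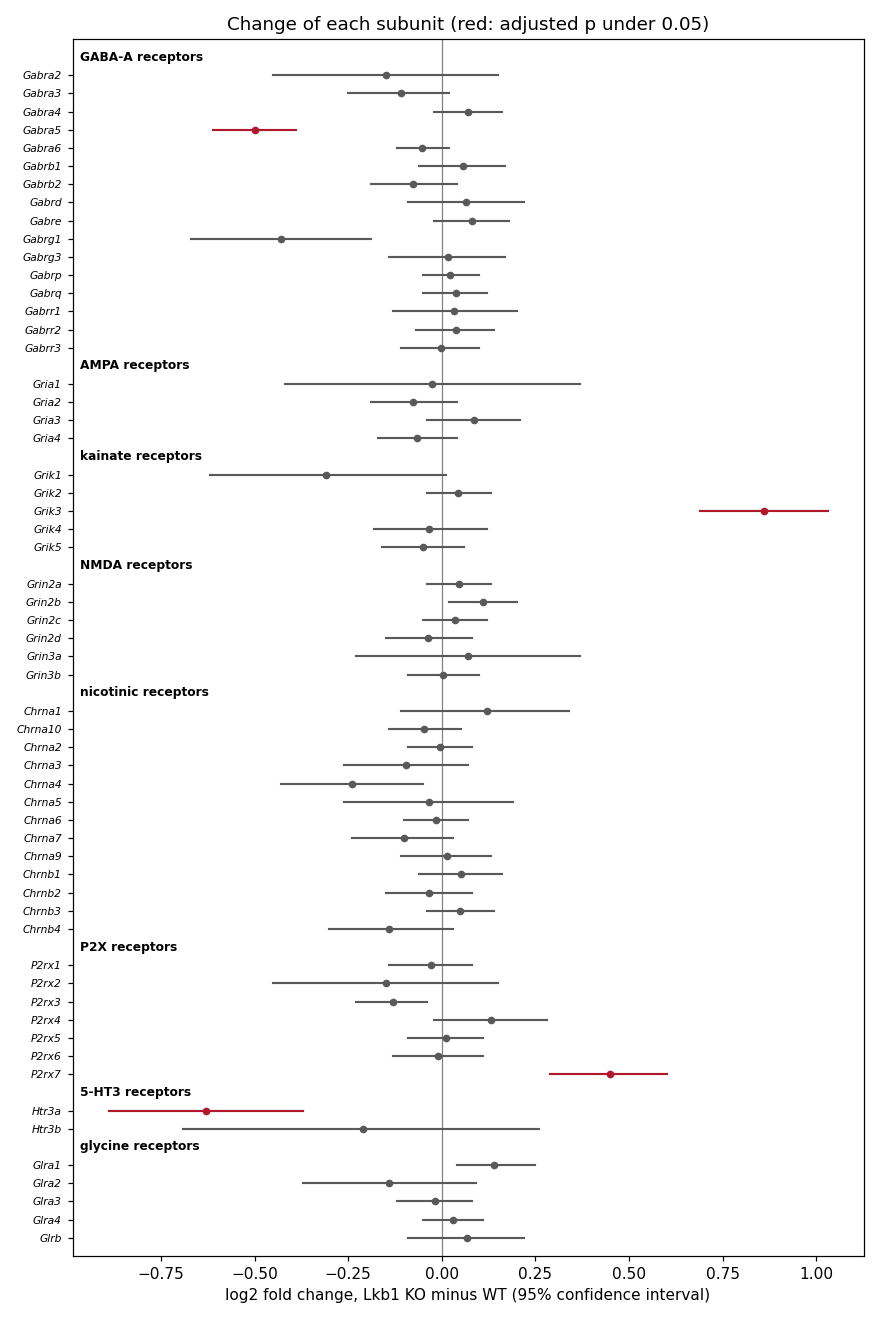
Log2 fold change, Lkb1 KO minus WT (x axis), of each of the 58 subunits (rows, by receptor class), with points for the estimate and bars for the 95% confidence interval of the limma fit, in red where the adjusted p was under 0.05. Grik3 at 0.86 and P2rx7 at 0.45 lie to the right, Htr3a at -0.63 and Gabra5 at -0.50 to the left, and most other intervals cross 0.

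NMDA subunits were mostly near the level of probe sets without transcript. Grin3a, which lowers calcium flow through the receptor, was at 6.75, 6.44, 6.58, 6.44 and 6.32 in WT and at 7.04, 6.60, 6.70, 6.45 and 6.09 in Lkb1 KO. The Lkb1 KO pools spread on both sides of the WT pools, and the log2 fold change of 0.07 (95% interval -0.23 to 0.37) turned to -0.045 without Lkb1 KO replicate 1. Grin2b, the subunit of immature synapses, was at 5.50 ± 0.06 in WT and 5.61 ± 0.06 in Lkb1 KO (SD, n = 5 each), just above the mark, and its log2 fold change of 0.11 did not pass (limma, adjusted p = 0.222). The class as a whole, with Grin2a, Grin2c, Grin2d and Grin3b at or below the mark, had log2 fold changes from -0.04 to 0.11.

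Of the 13 nicotinic subunits 0 passed in limma, 1 of them with an unadjusted p under 0.05, Chrna4. This subunit of the high-affinity nicotine receptor was at 7.51, 7.55, 7.75, 7.59 and 7.77 in WT and at 7.25, 7.44, 7.20, 7.37 and 7.71 in Lkb1 KO. All Lkb1 KO pools but replicate 5 lay below all WT pools. The difference of -0.24 (SE 0.088) on the log2 scale did not pass (limma, adjusted p = 0.196). It was called in 2 of the 21 alternative fits. Without Lkb1 KO replicate 5 it was -0.32 (limma, adjusted p = 0.0277). In the samples with Y-linked signal, which leave out that pool and Lkb1 KO replicate 2, it was -0.36 (limma, adjusted p = 0.0273). Its usual partner Chrnb2 had a log2 fold change of -0.04 (95% interval -0.15 to 0.08).

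Chrna3 was at 9.79 to 10.22 in WT and at 9.76 to 10.05 in Lkb1 KO. The sympathetic-marked pool, Lkb1 KO replicate 2, was at 10.02 and did not stand apart. Chrnb4, the ganglionic beta subunit, and Chrna7, which forms channels by itself, had log2 fold changes of -0.14 and -0.10, with adjusted p-values of 0.462 and 0.493 in limma. Chrna1 and Chrnb1, subunits of the muscle receptor, were below the mark of 5.47 in every sample. In Lkb1 KO replicate 3, the muscle-marked pool, Chrna1 was at 5.26 against 4.56 to 4.80 in the other 9 samples, and Chrnb1 was at 5.17 against 4.88 to 5.01. The mean of 18 muscle markers, of which 0 were called, was 5.99 in that pool and 5.24 to 5.37 in the others. With Lkb1 KO replicates 2 and 3 left out, the log2 fold changes of Chrna1 and Chrnb1 went from 0.12 and 0.05 to -0.033 and -0.003. The remaining members, Chrna2, Chrna5, Chrna6, Chrna9, Chrna10 and Chrnb3, lay between -0.05 and 0.05 on the log2 scale, all but Chrna5 at or below the mark.

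Among the P2X subunits other than P2rx7, P2rx3 had the most even shift. It was at 11.95, 11.87, 11.90, 11.89 and 11.79 in WT and at 11.83, 11.78, 11.77, 11.71 and 11.64 in Lkb1 KO. As in the other members listed with Gabrg1, each Lkb1 KO pool lay below the WT pool of its number, although the ranges met at 11.79 to 11.83. This shift of -0.13 (SE 0.044) on the log2 scale did not pass (limma, adjusted p = 0.145). A second probe set of P2rx3, at 8.35 in WT on average, differed by -0.37. The mean of both probe sets was called (-0.25, limma, adjusted p = 0.0197), and no other of the 21 alternative fits called P2rx3. P2rx2, which joins P2rx3 in mixed channels, was at 5.66 ± 0.31 in WT and 5.51 ± 0.22 in Lkb1 KO (SD, n = 5 each). P2rx4 was at 7.91 ± 0.03 in WT and at 8.04 ± 0.17 in Lkb1 KO (SD, n = 5 each), with a log2 fold change of 0.13 (limma, adjusted p = 0.41). P2rx1, P2rx5 and P2rx6 were at or below the mark, and their log2 fold changes were -0.03, 0.01 and -0.01.

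Htr3b, which works only with Htr3a, was the most variable member named here. It was at 8.53, 7.66, 7.97, 8.30 and 7.84 in WT and at 8.48, 7.71, 7.92, 8.0 and 7.12 in Lkb1 KO. The first 3 pairs of equal number differed by at most 0.05, and the lowest value of all was that of Lkb1 KO replicate 5. Its difference was -0.21 on the log2 scale (95% interval -0.69 to 0.26). It was 0.08 in the samples with Y-linked signal, which do not include that pool.

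Of the 5 glycine receptor subunits 0 passed in limma, 1 of them, Glra1, with an unadjusted p under 0.05. Glrb, the beta subunit that anchors the receptor to gephyrin, was at 8.24, 8.10, 8.23, 8.12 and 8.05 in WT and at 8.49, 8.22, 8.19, 8.04 and 8.14 in Lkb1 KO, with a log2 fold change of 0.07 that became -0.0014 without Lkb1 KO replicate 1. Glra2, the alpha subunit of embryonic receptors, had a log2 fold change of -0.14 (95% interval -0.37 to 0.09). Glra1 lay in the range of probe sets without transcript in all samples, at 4.41 to 4.77, and its log2 fold change of 0.14 did not pass (limma, adjusted p = 0.163). Glra3 and Glra4 were as low, with log2 fold changes of -0.02 and 0.03.

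Part of the spread within a genotype followed the replicate number. In 14 of the 58 members the samples numbered 1 were the highest in both genotypes, and 13 of these were among the 32 members above the mark; over all genes the share was 8.97%, and above the mark it was 12.9%. Of 8 members the samples numbered 5 were the lowest in both, against 7.30% of all genes. Gria1 had both features, at 7.81, 7.54, 7.43, 7.43 and 7.14 in WT and at 8.01, 7.61, 7.61, 7.04 and 6.95 in Lkb1 KO. So had P2rx3, Gabra2, Gabrb2, Grin3a and Glra2. The pattern was seen in the values first and carries no test. The mean of the sensory neuron markers in the samples numbered 1 to 5 was 10.11, 10.07, 10.06, 9.99 and 9.88 in WT and 9.89, 9.86, 9.89, 9.69 and 9.79 in Lkb1 KO, and that of the dividing cell markers was lowest at number 1 in both genotypes, at 8.58 and 8.93. The sources used here do not say what the numbers mark, and the part of cell make-up in this spread was not tested.

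**Figure D4:**
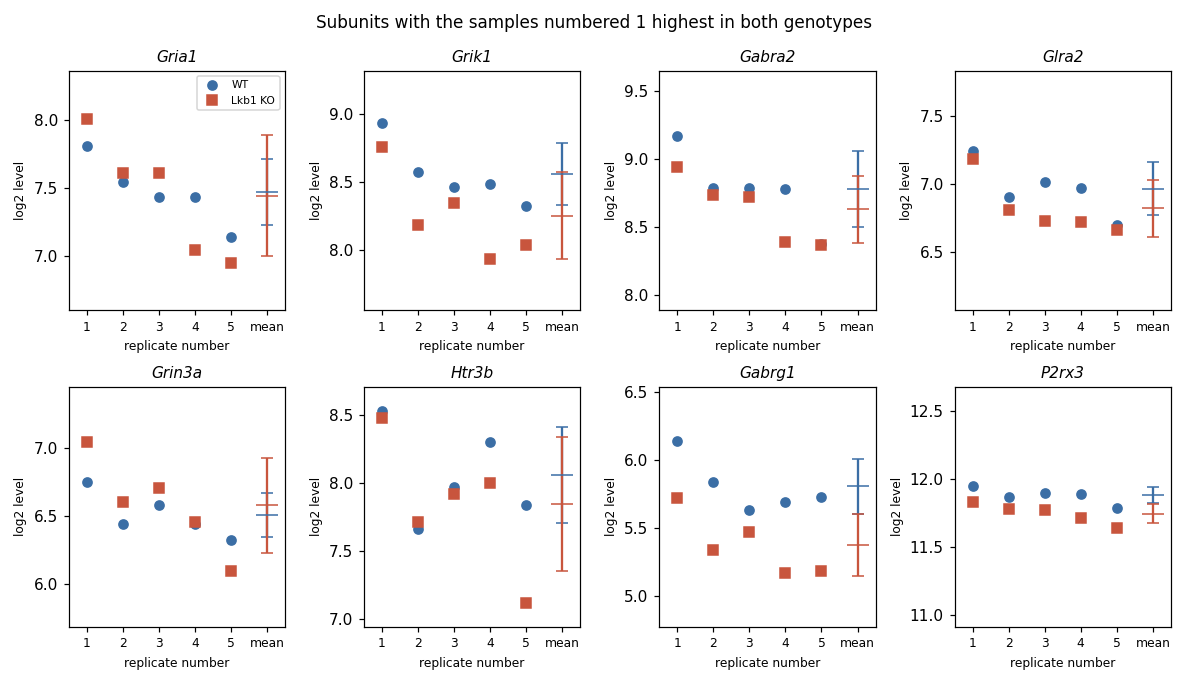
Log2 RMA expression level (y axis, the same span in each panel) of 8 subunits by replicate number (x axis) in WT (circles) and Lkb1 KO (squares), with their mean and SD at the right. In each panel the samples numbered 1 are the highest of their genotype, and for Gria1 the values of a genotype spread by more than the means differ.

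Many of these genes lie side by side. By RefSeq order 12 pairs of members were adjacent protein-coding genes, and in none were both called. P2rx7 (0.45) is next to P2rx4 (0.13), Gabra5 (-0.50) to Gabrg3 (0.02), Htr3a (-0.63) to Htr3b (-0.21) and Gabrg1 (-0.43) to Gabra2 (-0.15), all log2 fold changes. Of the X-linked members, Gabra3, Gabre, Gabrq, Gria3, Glra2 and Glra4, limma called 0 of 6, and 0 had an unadjusted p under 0.05.

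Other genes of these pathways were read from lists. Of 30 proteins that help receptors to assemble, anchor or gate, 1 rose and 2 fell. Lypd6, a regulator of nicotinic receptors, rose by 0.30 on the log2 scale (limma, adjusted p = 0.0133). Ric3, a chaperone of nicotinic and 5-HT3 receptors, fell by 0.23 (limma, adjusted p = 0.0237), with all Lkb1 KO pools below all WT pools. Gsg1l, an AMPA receptor partner, fell by 0.41 (limma, adjusted p = 0.0037). Of 8 other ionotropic subunits Grid1, a delta glutamate receptor, fell by 0.23 (limma, adjusted p = 0.00816). Its Lkb1 KO mean was 5.46, just under the mark. With the replicate block Asic1 fell too (-0.25, limma, adjusted p = 0.0297).

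Of 32 metabotropic receptors for the same transmitters 2 rose and 3 fell. The muscarinic receptor Chrm2 was at 9.29 ± 0.23 in WT and 8.49 ± 0.40 in Lkb1 KO (SD, n = 5 each; limma, adjusted p = 0.0183). Chrm3 fell by 0.26 (limma, adjusted p = 0.00789) and Grm3, a glutamate receptor that lowers cAMP, by 0.40 (limma, adjusted p = 0.000689). The ADP receptors P2ry1 and P2ry12 had log2 fold changes of 0.26 and 0.20, with adjusted p-values of 0.00337 and 0.0422 in limma, and P2ry12 lost its call with the replicate block (adjusted p = 0.0594). Of 24 genes of transmitter synthesis, release and uptake 2 rose: Slc1a3, the glial glutamate transporter, by 0.56 (limma, adjusted p = 0.00157) and Slc6a5, a glycine transporter, by 0.25 from a WT mean of 4.65, below the mark (limma, adjusted p = 0.0278). Slc6a5 is also on the list of spinal cord markers, of which 3 of 15 rose, Pax6 and Pax2 with it (0.24 each), and the mean of that list was 4.74 to 4.83 in WT and 4.81 to 4.91 in Lkb1 KO; the part of spinal cord tissue was not tested. With the replicate number as a block 4 of the 24 rose, Gad2 and Slc6a13 in addition, and 2 fell, Slc5a7 (-0.22, limma, adjusted p = 0.0217) and Ache (-0.34, limma, adjusted p = 0.0017). Of 6 chloride transporters 1 rose, Slc12a7, with a log2 fold change of 0.36 (limma, adjusted p = 0.0195). The shares called were 8.33% to 16.7% of the pathway lists, against 3.87% of all genes and 5.76% of genes above the mark. Some of these lists are short, so that 16.7% stood for 1 gene of 6 and 12.5% for 1 of 8.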

How the data were processed

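RNA of E13.5 DRGs was labelled from 250 ng and hybridised to 10 arrays. Per the labels and processing notes, the authors normalized the arrays with RMA, which gives log2 values, and used Partek 6.6; the deposited log2 table was used as given, and other steps of the normalization are not given in the sources used here. Per the methods the comparison itself was run in MATLAB at a false discovery rate of 0.01. It held 35556 probe sets, of which 21789 named 1 gene, 1621 several and 12146 none in the table used here; 21698 matched RefSeq by gene identifier, all 58 members among them. Levels were compared with limma 3.58.1 (lmFit and eBayes, two-sided, genotype only) in R 4.3.3 on 1 probe set per gene, without a filter on low values, and adjusted by Benjamini-Hochberg over 19938 genes. The number of arrays limits the precision. The code was tested on simulated data.

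Members named singly were those with an adjusted or unadjusted p under 0.05, the 2 of each class with the highest mean, and subunits known from sensory or autonomic neurons, macrophages or muscle, and of each list the called genes, up to 4. Members and lists were chosen with earlier results of these data known. Deviations from the group means correlated at 0.21 to 0.48 between samples of the same number and at -0.48 to 0.31 otherwise. These ranges overlap. Among the fits, only the replicate block took the numbers in the sample titles to pair the samples, and the main fit used genotype only. That pairing was read from these same values and is not stated in the sources used here.

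The alternatives were a scaling that aligned array medians, cyclic loess, an analysis of variance, limma with an intensity trend and robust prior or with array weights, a fit without the dimmest 30% of genes, averaged probe sets per gene, the replicate block, the Y-linked mean as covariate, the Y-positive samples alone, a threshold of 0.01, and leaving out each sample in turn. Leaving out Lkb1 KO replicates 2 and 3 together was added after seeing the data.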

Additional observations from a re-analysis of the deposited data

Results flagged for a closer look

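In 116 groups of 5 samples, 2 for each subunit, the gap between the extreme sample and its nearest neighbour was compared with the whole range. Chance alone marks about 1 in 20 groups, and 3 were marked. P2rx7 in WT had 1 low sample, WT replicate 1 at 6.91 against 7.21 to 7.27 in the others. Chrnb1 in Lkb1 KO had 1 high sample, replicate 3 at 5.17 against 4.91 to 4.95, which is the pool with raised muscle markers. Chrna9 in Lkb1 KO had 1 high sample, replicate 4 at 4.79 against 4.64 to 4.68, a level at which probe sets without transcript also lay.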

How the results depend on the processing

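Grik3, P2rx7 and Gabra5 kept direction and call in all 21 refits, with log2 fold changes of 0.79 to 0.94, 0.38 to 0.48 and -0.54 to -0.45 and adjusted p-values of at most 0.00104, 0.0422 and 0.00206 in limma and 0.00461, 0.0379 and 0.00345 in the analysis of variance. Htr3a (-0.71 to -0.52) lost its call with the analysis of variance (adjusted p = 0.083), the Y-linked covariate and the samples with Y-linked signal. The subunits called lower, 2 at first, were 1 with the analysis of variance, the Y-linked covariate and an adjusted p under 0.01, and 4 with the replicate block. That block changed no other call of a named subunit.

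Over all genes the 496 higher became 260 with the analysis of variance, 285 with the covariate, 288 with Y-linked signal only, 275 without the sympathetic- and muscle-marked pools and 231 at 0.01. The 275 lower became 127, 565 with the block, 171 with Y-linked signal only, 99 without those pools and 82 at 0.01. Leaving out 1 sample gave 146 to 347 lower, with a move of over 1.5 times for WT replicates 1 to 4 (182, 148, 146 and 152) and Lkb1 KO replicates 3 and 4 (179 and 173). The median over the subunits was -0.042 without the dimmest 30%.

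Of 606 values of 29 subunits 584 kept direction and call, 9 gained and 3 lost it, and 10 changed sign, none of them called. With 1 sample left out Gabrg3 ran from -0.03 (Lkb1 KO replicate 3) to 0.074, with -0.013 without WT replicate 5 and -0.015 without Lkb1 KO replicate 1, and it was -0.032 without the marked pools, which gave -0.033 for Chrna1 and -0.003 for Chrnb1. Grin3a ran from -0.045 to 0.19 and Glrb from -0.0014 to 0.11, both lowest without Lkb1 KO replicate 1. Htr3b was 0.091 with the covariate and 0.075 with Y-linked signal only. The cause was not tested. For the 26 subunits near background, signal limits what could be seen.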
